A study of Mus musculus with 12 samples.

Results

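The genes of the integrated stress and amino acid response were examined in 3 murine acute myeloid leukaemia lines. A list of 37 genes was followed, made up of the ATF4 pathway, the eIF2alpha kinases, enzymes of serine, asparagine and proline synthesis, amino acid transporters and tRNA synthetases. The list was drawn up by gene function, with earlier results of these data known. For each gene the brightest probe set over all arrays was used, among those annotated to that gene alone. Of the 37 genes, 33 had such a probe set, out of 17097 genes on the array, and 32 entered the tests with 11223 genes in all. Cars, Mthfd2, Pycr1 and Tars had no probe set annotated to them alone, and Vldlr was too dim to be tested. Mars was found under its current symbol Mars1.

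The cells of all 3 lines carried a Trib1 expression construct, were grown with interleukin-3 in serum-containing medium and received no treatment. The line called Trib1 had no other introduced gene, and lines TB13 and TB14 are labelled as expressing Bcl11a as well. Trib1 is a pseudokinase known for driving degradation of C/EBPalpha, and Bcl11a is a zinc finger transcriptional repressor. Each line was measured on 4 arrays. The sources used here do not give how the lines were derived, whether they are clonal or which promoter drove the introduced genes.

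The integrated stress response starts with kinases that phosphorylate the translation factor eIF2alpha. Among them PERK, encoded by Eif2ak3, answers to unfolded protein in the endoplasmic reticulum, and GCN2, encoded by Eif2ak4, to uncharged tRNA. Phosphorylated eIF2alpha lowers general translation but favours translation of the transcription factor ATF4, which with C/EBP partners induces genes that supply amino acids, charge tRNAs and, on long stress, the pro-apoptotic factor CHOP (Ddit3). Much of ATF4's control is translational, so its own mRNA need not follow its activity. Leukaemia cells are known to depend on external asparagine to a varying degree, which asparagine synthetase (Asns) offsets.

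The values were linear array intensities, and changes are differences of log2(intensity + 12.7), given with the standard error. On this scale the change of a dim gene is understated. A gene was called at an adjusted p under 0.05 (limma, Benjamini-Hochberg over all 11223 genes). The labels do not tell whether the 4 arrays of a line came from separate cultures. The p-values hence cover the spread between arrays alone, possibly technical, and with 1 line without Bcl11a they hold nothing of the spread between lines. Arrays of a line correlated at 0.995 or above across probe sets, and precision was limited by having 4 arrays per line.

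The TB13 arrays stood apart. The 18 hybridization controls, which report transcripts added to every sample, were lower in TB13 than in Trib1 by a median of -0.93 on the log2 scale, and in TB14 the median difference was 0.0010. Array medians were 25.5 to 25.9 for TB13 against 20.8 to 21.4 elsewhere, and upper quartiles 71.8 to 72.5 against 102 to 108.7. The median over all genes was -0.39 in TB13 against Trib1 with the deposited values, and quantile scaling moved it to 0.026. For TB13 both values are given below, deposited first and quantile-scaled next. The 3' to 5' intensity ratio of the actin probe sets, a sign of RNA quality, also followed the lines, at 1.04 to 1.06 in Trib1, 1.11 to 1.12 in TB13 and 1.01 to 1.03 in TB14. That of the Gapdh probe sets was 0.891 to 0.907 in Trib1, 0.919 to 0.942 in TB13 and 0.905 to 0.921 in TB14. For Gapdh the TB14 range overlapped those of both other lines.

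All 9 myeloid markers lay above the array median on all 12 arrays, but at different levels in the lines. They summed to 6480 to 6632 units in Trib1, 4640 to 4834 in TB13 and 7839 to 7922 in TB14. In TB14 against Trib1 the means of the granule genes Mpo, Elane and Lyz2 were 2296 against 226, 436 against 55.6 and 1118 against 407 units. Those of the receptor genes Csf1r and Fcgr3 were 56.0 against 156 and 841 against 1526, and that of Itgam was 154 against 260.5. Of the other cell types, B cell markers summed to 70.6 to 78.5 units on Trib1 and TB14 arrays and 104 to 120.0 on TB13 arrays, and T cell markers to 127 to 147 and 218 to 268. Erythroid markers summed to 916 to 967 in Trib1, 1602 to 1733 in TB13 and 1533 to 1561 in TB14. Of the 5 stromal and endothelial markers Col1a1, Col1a2 and Cdh5 were above the median on no array, and the sum of the list followed Pecam1, at 771, 285 and 579 in Trib1, TB13 and TB14. The part of these differences in the results below was not tested. The 4 Bcl11a probe sets read 7.65 to 21.5 units in Trib1, 7.69 to 17.3 in TB13 and 6.70 to 15.7 in TB14, near or below the array medians. The highest reading was in the line without introduced Bcl11a, so these probe sets did not show the labelled expression, and Bcl11a in TB13 and TB14 is taken from the labels alone. The 2 Trib1 probe sets read 15.1 to 28.0, 17.2 to 40.1 and 14.4 to 28.6 units.

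ATF4 and its C/EBP partners bind a composite DNA element, and the promoters of the response genes were searched for its core, TGATGNAA or TTNCATCA on the other strand, in RefSeq windows (GRCm38.p6) from 250 bases before to 50 bases after the transcription start. Of the 37 genes 31 had a window, and 13 of these (41.94%) held the word, against 4.51% of 27025 genes with a window. Over single windows, 3.97% of 32851 held it. The list was drawn up by function around the ATF4 pathway, so its larger share describes that choice and is no result of the arrays. Shown are the 5 tested genes with the word and the largest changes, taken as the mean over TB13 and TB14 as deposited. Each holds a match to the searched word, and whether that word is bound or acts in these genes was not tested. For Trib3 that mean joined a rise in TB13 (0.27) and a fall in TB14 (-0.99). For Chac1 it turned to 0.028 under quantile scaling, and Atf3 was tested only because it was high in TB13. Each run has 250 bases, 5′ to 3′ on the gene's strand, with the matched word in capitals. They are Slc7a11 (chr3:50443614-50443863, minus strand), Trib3 (chr2:152344039-152344288, minus), Asns (chr6:7693210-7693459, minus), Chac1 (chr2:119350992-119351241, plus) and Atf3 (chr1:191183334-191183583, minus).
Slc7a11: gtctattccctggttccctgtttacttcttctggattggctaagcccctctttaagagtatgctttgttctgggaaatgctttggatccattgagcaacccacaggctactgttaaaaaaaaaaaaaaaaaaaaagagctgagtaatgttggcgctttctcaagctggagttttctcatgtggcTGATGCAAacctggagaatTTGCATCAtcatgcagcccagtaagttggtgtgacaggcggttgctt
Trib3: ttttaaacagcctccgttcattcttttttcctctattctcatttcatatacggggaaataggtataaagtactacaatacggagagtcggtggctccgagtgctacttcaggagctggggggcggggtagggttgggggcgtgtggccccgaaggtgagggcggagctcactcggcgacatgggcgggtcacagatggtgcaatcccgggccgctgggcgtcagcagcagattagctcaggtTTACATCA
Asns: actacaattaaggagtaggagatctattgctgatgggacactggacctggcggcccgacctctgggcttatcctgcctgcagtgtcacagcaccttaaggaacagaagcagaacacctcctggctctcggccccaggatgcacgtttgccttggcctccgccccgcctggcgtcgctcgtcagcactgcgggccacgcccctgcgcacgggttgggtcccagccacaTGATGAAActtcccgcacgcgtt
Chac1: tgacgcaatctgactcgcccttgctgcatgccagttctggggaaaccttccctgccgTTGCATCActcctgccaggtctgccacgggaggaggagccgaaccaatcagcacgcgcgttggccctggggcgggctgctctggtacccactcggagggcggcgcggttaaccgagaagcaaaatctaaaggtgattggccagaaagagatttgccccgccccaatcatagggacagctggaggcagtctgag
Atf3: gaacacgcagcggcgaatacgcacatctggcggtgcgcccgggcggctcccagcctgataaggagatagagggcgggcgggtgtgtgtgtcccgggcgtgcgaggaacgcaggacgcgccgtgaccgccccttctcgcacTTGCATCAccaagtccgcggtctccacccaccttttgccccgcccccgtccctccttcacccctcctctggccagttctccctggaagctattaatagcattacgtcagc
In Slc7a11 the word occurred 2 times, once on each strand, starting 66 and 47 bases before the transcription start. In Asns it began 23 bases before the start and read TGATGAAA, in Atf3 110 bases before and in Chac1 193 bases before. The Trib3 word began at base 15 of the transcript, so its window was moved to end with the word, 22 bases past the start. Nupr1, Aars, Gars, Iars, Yars, Pycr1, Tars and Vldlr also held the word. Ddit3, Atf4, Atf5 and Psph did not, which says only that these letters are not in this window. Of the 10 tested genes with the word 7 were called lower in TB14 than in Trib1 and 0 higher. Of the 17 with a window but no word 9 were lower and 1 higher. Of all genes 21.5% were called lower and 27.0% higher. The medians of the log2 change were -0.21 with the word and -0.12 without. After quantile scaling 9 of the 10 and 9 of the 17 were called lower, where 20.8% of all genes were. The difference between genes with and without the word was not tested.

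In TB14 the response genes were mostly lower than in the Trib1 line, by small amounts apart from 3 regulators. Of the 32 tested, 20 were called lower, where 21.5% of all genes were, and 1 was called higher, where 27.0% of all genes were. The median log2 change of the 32 was -0.16, and that of all genes -0.0024. Many of the 32 were bright, and bright genes were called more often. Among genes averaging 800 units or more, 11 of 14 response genes were lower, where 34.7% of all such genes were, and at 200 to 800 units 5 of 8, where 27.4% were. In bulk RNA of this kind fewer cells of a type and less RNA per cell cannot be told apart. A change of 2-fold or more was rarer. Psph rose by that much, where 1.02% of all genes did, and Atf5 and Ddit3 fell by that much, where 1.79% of all genes did. Of the 21 calls, 19 falls and the rise of Psph were called the same way under all 4 scalings tried (deposited, quantile, median and hybridization controls), and none was called both ways. Of all genes 17.5% were called lower and 21.5% higher under all 4. Quantile scaling alone gave 22 response genes lower and 1 higher, where 20.8% and 22.9% of all genes were, median scaling 20 and 2 (19.7% and 29.0%) and the hybridization controls 19 and 2 (20.4% and 24.2%). The myeloid marker sums and the actin ratios given above did not overlap between these lines either, while the Gapdh ratios did. Their part was not tested.

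**Figure D1:**
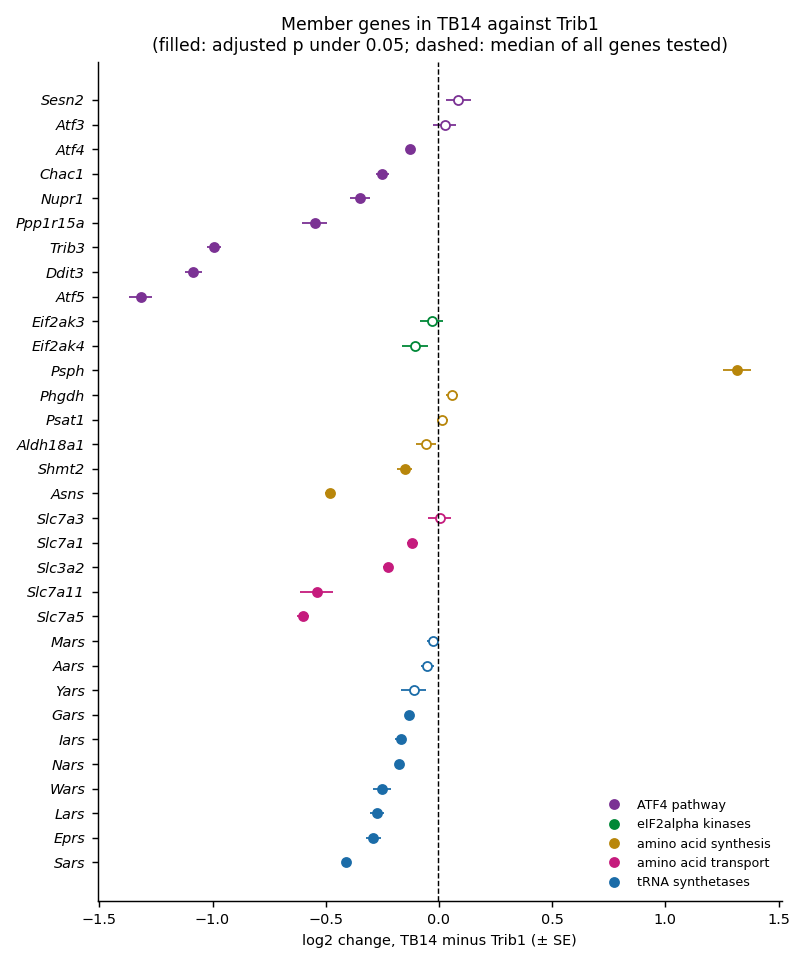
Log2 change in TB14 against Trib1 for the 32 tested response genes, grouped and coloured by role, with points at the estimate, bars for the standard error, filled points for calls and the dashed line at the median of all genes. Psph stands alone on the right at 1.32, Atf5, Ddit3 and Trib3 lie at -1.32 to -0.99, and the synthetases lie between -0.41 and -0.03.

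Of the 9 tested genes of the ATF4 pathway 7 fell in TB14, where 21.5% of all genes did, and 0 rose, where 27.0% did. Their median log2 change was -0.35. Ddit3 encodes CHOP, the stress-induced C/EBP family factor. It read 356, 376, 342 and 349 units on the 4 Trib1 arrays, 465, 483, 506 and 479 on the TB13 arrays and 157, 165, 161 and 161 on the TB14 arrays. The 3 lines did not overlap, with TB13 highest and TB14 lowest. The TB14 mean of 161 ± 3.5 (SD, n = 4) against 356 ± 14.7 gave a log2 change of -1.08 ± 0.039 (adjusted p = 1.1e-14).

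Trib3, a pseudokinase of the Tribbles family and an ATF4 and CHOP target, showed the same order of lines. Its arrays read 443, 449, 440.3 and 443 units in Trib1, 544, 538, 531 and 537 in TB13 and 213, 209.7, 222 and 222 in TB14. All 4 TB14 arrays were below all others and all 4 TB13 arrays above. The log2 change in TB14 was -0.99 ± 0.031 (adjusted p = 1.7e-15). Nupr1, a small stress-induced chromatin protein, followed this order with smaller steps. Its readings were 234 to 261 units in Trib1, 281 to 311 in TB13 and 188 to 198 in TB14, where it fell by 0.35 on the log2 scale (SE 0.044, adjusted p = 1.4e-06).

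Atf5, an ATF4-related factor that is also controlled by translation, had the largest fall in TB14. It read 259, 296, 290.4 and 290.3 units in Trib1, 159.7, 161, 163 and 157 in TB13 and 108, 95.8, 111 and 110.2 in TB14. The lines did not overlap as deposited, in the order Trib1, TB13, TB14. The change in TB14 was -1.32 ± 0.052 (adjusted p = 5.1e-14). Ppp1r15a, the stress-induced subunit GADD34 that returns eIF2alpha to its unphosphorylated form, stood at 151 ± 7.54 units in Trib1 and 99.4 ± 5.22 in TB14 (SD, n = 4), a change of -0.55 ± 0.055 (adjusted p = 7.6e-08).

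Atf4 itself moved little. It read 2658, 2769, 2740.0 and 2713 units in Trib1, 2743, 2701, 2734 and 2695 in TB13 and 2448, 2543, 2502 and 2475 in TB14. The TB14 arrays lay below the other 8, which overlapped as deposited. The TB14 change of -0.13 ± 0.016 passed the test (adjusted p = 1.9e-06). Chac1, an enzyme that degrades glutathione, read 504 to 524 units in Trib1 and 426 to 446 in TB14, a change of -0.25 ± 0.030 (adjusted p = 9.2e-07).

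The other pathway genes did not pass in TB14. Atf3, a stress-induced repressor and activator, was near the array median in Trib1 and TB14, at 18 to 21.7 and 20.2 to 21.7 units, and at 28.1 to 34.0 in TB13. Its TB14 change was 0.02 ± 0.050 (adjusted p = 0.73). Sesn2, a leucine sensor that restrains mTORC1, read 201 to 206 units in Trib1 and 212 to 219 in TB14, a change of 0.09 ± 0.054 (adjusted p = 0.21, and 0.0497 without TB13 array 4). A further Sesn2 probe set went the other way, from 155 to 120.1 units, with a change of -0.34 (adjusted p = 7.2e-06), so the direction of Sesn2 depended on the probe set. Vldlr, a lipoprotein receptor, read 17.1 to 20.3 units in Trib1 and TB14 and 23.3 to 31.1 in TB13 and was not tested.

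**Figure D2:**
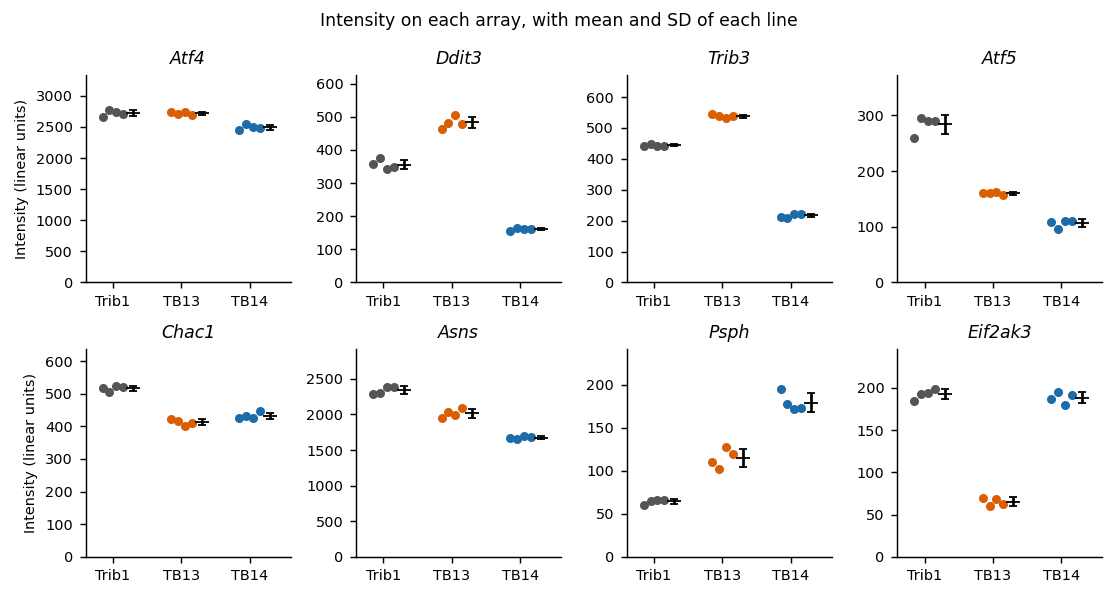
Deposited intensity (linear units, axis from 0) of 8 response genes on each array of the 3 lines, with black marks for the mean and SD of 4 arrays. Ddit3 and Trib3 are highest in TB13 and lowest in TB14, Psph is higher in TB13 and TB14 (their order turned under quantile scaling), and Eif2ak3 is low on the TB13 arrays alone.

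The eIF2alpha kinases of the list did not pass in TB14. Eif2ak3 read 185 to 198 units in Trib1 and 179.7 to 195 in TB14, and Eif2ak4 151 to 162 and 137 to 154, so the ranges of both lines overlapped for each kinase. The log2 changes were -0.03 ± 0.051 and -0.10 ± 0.057 (adjusted p = 0.66 and 0.14). In a fit of the Trib1 and TB14 arrays alone Eif2ak4 was called lower (adjusted p = 0.024).

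Amino acid synthesis genes did not move together in TB14. Of 6 tested, 1 rose, 2 fell and 3 did not pass, where 27.0% of all genes rose and 21.5% fell. Psph, the phosphatase of the last step of serine synthesis, read 60.3, 64.6, 66.1 and 66.2 units in Trib1, 109.6, 102, 127 and 119.9 in TB13 and 195, 178, 172 and 173 in TB14. The lines did not overlap as deposited, and TB13 and TB14 both lay above Trib1. The log2 change in TB14 was 1.32 ± 0.061 (adjusted p = 7.0e-13). The enzymes of the earlier steps, Phgdh and Psat1, changed by 0.06 ± 0.026 and 0.02 ± 0.023 without passing (adjusted p = 0.079 and 0.64), although Phgdh passed without TB13 array 1 or 2 in the fit (adjusted p = 0.029 and 0.041). A further Phgdh probe set was called higher, with a change of 0.11 (adjusted p = 0.0017).

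Asns, which makes asparagine from aspartate, read 2294, 2304, 2389.7 and 2392 units in Trib1, 1949.6, 2029.9, 1995 and 2086 in TB13 and 1665, 1649.8, 1699 and 1686 in TB14. The lines did not overlap as deposited, with TB14 lowest. In TB13 Asns changed by -0.22 as deposited and -0.065 after quantile scaling. On the hybridization controls it changed there by -0.012 without passing (adjusted p = 0.74). The change in TB14 was -0.48 ± 0.021 (adjusted p = 2.9e-13). Shmt2, the mitochondrial enzyme that moves a one-carbon unit from serine to folate, stood at 1067 ± 16.8 units in Trib1 and 959.5 ± 33.7 in TB14 (SD, n = 4), a change of -0.15 ± 0.032 (adjusted p = 0.00060). Aldh18a1, at the entry to proline synthesis, changed by -0.06 ± 0.046 (adjusted p = 0.34). A further Aldh18a1 probe set was called lower, with a change of -0.16 (adjusted p = 0.0082). So was the mean of its probe sets, with a change of -0.11 (adjusted p = 0.022).

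Of the 5 amino acid transport genes 4 fell in TB14, where 21.5% of all genes did. Slc7a5 is the light chain LAT1 of the large neutral amino acid exchanger, and Slc3a2 its heavy chain, which also pairs with the cystine carrier xCT, encoded by Slc7a11. Slc7a5 read 1204, 1259, 1229 and 1189 units in Trib1, 983, 969.5, 957 and 911 in TB13 and 795, 794, 815 and 799.9 in TB14. The lines did not overlap as deposited. The TB14 changes were -0.60 ± 0.026 for Slc7a5, -0.54 ± 0.072 for Slc7a11 and -0.22 ± 0.020 for Slc3a2 (adjusted p = 2.5e-13, 3.5e-06 and 1.6e-08). Slc7a11 was dim, at 56.0 to 62.9 units in Trib1, 34.1 to 38.3 in TB14 and 22.9 to 36.0 in TB13. Its other probe set was above the array median on the 4 Trib1 arrays alone, at a mean of 44.5 units, so it entered through the line where it was high and its change is not used.

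The cationic amino acid carriers moved less. Slc7a1 changed by -0.12 ± 0.024 (adjusted p = 0.00036), but a further probe set of it changed by 0.13 (adjusted p = 0.025), so its direction depended on the probe set. Slc7a3 read 21.5 to 26.4 units in Trib1 and 24.1 to 25.5 in TB14, a change of 0.0026 (adjusted p = 0.97).

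The tRNA synthetases of the list, which charge tRNAs in the cytoplasm, shifted by small amounts in TB14. Of 10 tested, 7 fell, 0 rose and 3 did not pass, where 21.5% of all genes fell and 27.0% rose. The median log2 change was -0.17, with a range from -0.41 to -0.03. Sars, the seryl enzyme, had the largest change. It read 1109.6, 1109, 1105 and 1114 units in Trib1, 1075, 1067, 1037 and 1098 in TB13 and 832, 835, 835 and 829 in TB14. The TB14 arrays lay below all others. The change was -0.41 ± 0.021 (adjusted p = 4.7e-12), and -0.41 in the other Sars probe set. Eprs (glutamyl-prolyl), Lars (leucyl) and Wars (tryptophanyl) changed by -0.29, -0.27 and -0.25, Nars (asparaginyl), Iars (isoleucyl) and Gars (glycyl) by -0.18, -0.17 and -0.13. All 6 passed. Aars (alanyl), Yars (tyrosyl) and Mars (methionyl) changed by -0.05, -0.11 and -0.03 and did not pass (adjusted p = 0.15, 0.10 and 0.46), although Yars passed without TB13 array 4 (adjusted p = 0.0034). A further Aars probe set was called higher, with a change of 0.18, and 1 of Iars changed by 0.0089.

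In TB13 the count of calls followed the scaling. As deposited 23 of 32 response genes were called lower in TB13 than in Trib1, where 63.6% of all genes were, and 7 higher, where 29.0% were. After quantile scaling 4 were lower, where 38.3% of all genes were, and 22 higher, where 42.0% were. The medians of the 32 were -0.16 and 0.17, against -0.39 and 0.026 for all genes. Of the 32, 21 were called higher under 1 scaling and lower under another, so they have no direction in TB13. The share of all genes called both ways was not counted, here or in the other comparisons. Whether such counts are particular to the response genes is thus not known. Median scaling gave 25 lower and 5 higher, where 69.6% and 21.7% of all genes were, and the hybridization controls 2 lower and 28 higher, where 11.9% and 73.3% were. Under all 4 scalings Atf3, Ddit3, Trib3, Phgdh and Psph were called higher and Eif2ak3 and Eif2ak4 lower. Of all genes 21.7% were called higher and 11.5% lower under all 4, so the 5 and 2 of 32 were no larger a share than in all genes. Atf3 was above the array median on all 4 TB13 arrays and 3 others, so it was tested only because it was high in TB13, and its call there is a description.

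**Figure D3:**
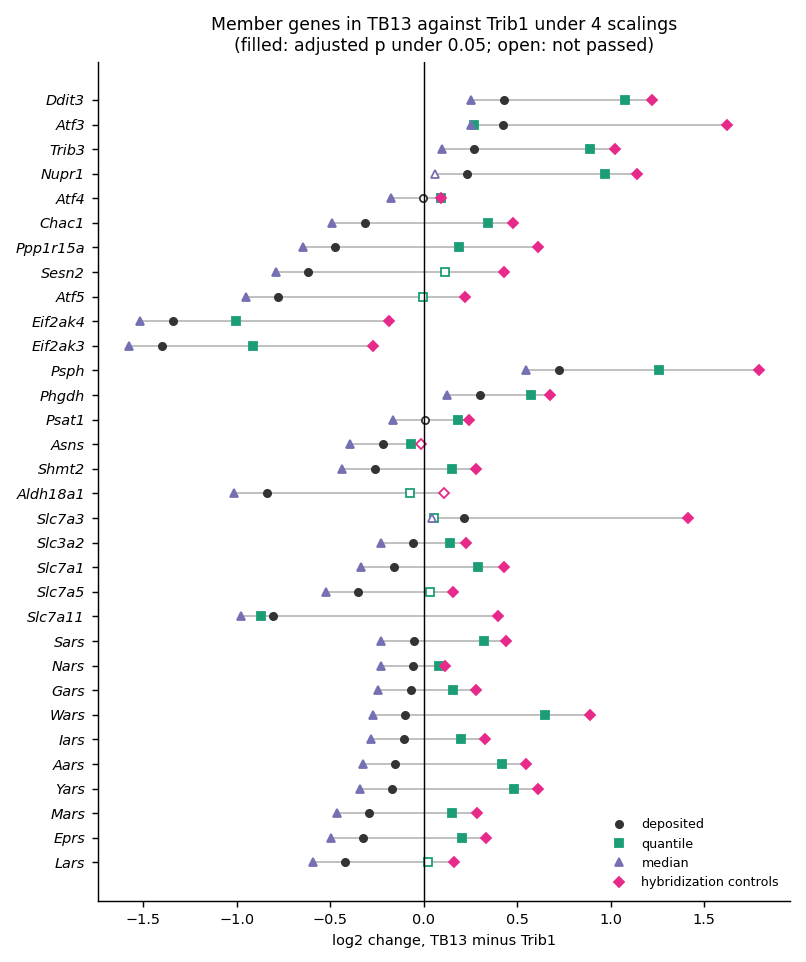
Log2 change in TB13 against Trib1 for the 32 tested response genes under 4 scalings (symbol and colour), filled where called, with a grey line from the lowest to the highest value. Ddit3, Atf3, Trib3, Psph and Phgdh stay right of 0 and Eif2ak3 and Eif2ak4 left of it, and most synthetases cross 0.

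The 2 kinases had the largest falls in TB13. Eif2ak3 read 185, 193, 194 and 198 units in Trib1 and 70.2, 59.9, 68.7 and 62.0 in TB13. Eif2ak4 read 155, 162, 156 and 151 in Trib1 and 56.6, 51.3, 59.1 and 49.0 in TB13. For both, all TB13 arrays lay far below all others. The changes as deposited were -1.40 ± 0.051 and -1.34 ± 0.057 (adjusted p = 4.4e-15 and 3.5e-14), and after quantile scaling -0.91 ± 0.062 and -1.01 ± 0.070 (adjusted p = 1.1e-09 and 1.4e-09). Calibrated on the hybridization controls they were -0.27 and -0.19. Among all genes at 50 to 200 units, where both kinases lie, the median change as deposited was -0.56 and 72.2% were called lower.

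Ddit3 and Trib3 rose in TB13, while genes of their brightness mostly fell there. At 200 to 800 units 95.5% of all genes were called lower and 2.71% higher as deposited, with a median change of -0.75. Ddit3 changed by 0.43 ± 0.039 before and 1.08 ± 0.036 after quantile scaling (adjusted p = 2.9e-09 and 1.4e-13). Trib3 changed by 0.27 ± 0.031 and 0.89 ± 0.028 (adjusted p = 1.2e-07 and 5.7e-14). Nupr1 changed by 0.23 and 0.97, and by 0.06 without passing after median scaling. These 3 were the response genes called higher at this brightness, and 5 were called lower.

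Serine synthesis genes gave a mixed picture in TB13. Psph changed by 0.72 ± 0.061 as deposited and 1.26 ± 0.069 after quantile scaling (adjusted p = 1.1e-09 and 6.7e-11). Phgdh, the entry enzyme of the pathway, read 1276, 1296, 1265 and 1272 units in Trib1 and 1667, 1503, 1596 and 1544 in TB13. All TB13 arrays were above the Trib1 arrays, and the changes were 0.30 and 0.57. A further Phgdh probe set fell by 0.17 on the log2 scale with the deposited values and changed by 0.22 after quantile scaling, so with deposited values the rise rested on 1 of 2 probe sets. Psat1 changed by 0.01 without passing (adjusted p = 0.73), and by 0.18 after quantile scaling.

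Atf3 and Slc7a3, with 31.7 ± 2.67 and 30.9 ± 2.49 units in TB13 (SD, n = 4), lay among dim genes, which mostly read higher on the TB13 arrays. Under 50 units 70.3% of all genes were called higher in TB13, with a median change of 0.31. Atf3 changed by 0.43 as deposited and 0.27 after quantile scaling, and Slc7a3 by 0.22 and, without passing, 0.06 (adjusted p = 0.33). Slc7a11 changed by -0.80 and -0.87 but by 0.40 after calibration on the hybridization controls. Atf5 changed by -0.78 ± 0.052 (adjusted p = 3.0e-11), and by -0.0046 after quantile scaling (adjusted p = 0.93). The 10 synthetases were all called lower as deposited, where 63.6% of all genes were, with a median of -0.13. After quantile scaling 9 were called higher, where 42.0% of all genes were, with a median of 0.20. There the further probe sets of Wars changed by -0.11 and -0.052 and that of Aars by -0.028, against 0.65 and 0.42 in those used. Further probe sets of Iars, Nars, Sars and Eprs changed by 0.051 to 0.28. As deposited the further Wars probe sets changed by -0.83 and -0.77, against -0.10.

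TB13 and TB14 differed from each other in the regulators. Ddit3 was lower in TB14 than in TB13 by -1.51 ± 0.039 as deposited and -2.15 ± 0.036 after quantile scaling, Trib3 by -1.26 ± 0.031 and -1.90 ± 0.028, and Nupr1 by -0.58 ± 0.044 and -1.32 ± 0.040 (log2 changes, each adjusted p at or below 1.6e-10). Against the Trib1 line these 3 genes were called higher in TB13 and lower in TB14 under both of these scalings. The comparisons of TB13 and of TB14 with Trib1 share the Trib1 arrays, and the difference was tested on the TB13 and TB14 arrays themselves. As deposited 16 of 32 response genes were lower in TB14 than in TB13, where 29.4% of all genes were, and 11 higher, where 63.4% were. After quantile scaling 25 were lower, where 41.1% of all genes were, and 3 higher, where 38.9% were. Under all 4 scalings 8 were lower, namely Atf3, Atf5, Ddit3, Trib3, Nupr1, Asns, Slc7a5 and Sars, and Eif2ak3 was higher, where 21.4% and 13.1% of all genes were. Atf3 counts among the 8 through its high TB13 readings, as above. Median scaling gave 8 lower and 19 higher, where 21.4% and 70.1% of all genes were, and the hybridization controls 30 and 1, where 70.6% and 13.6% were. Of the response genes 17 were called both ways. Psph was higher in TB14 by 0.59 as deposited, and after quantile scaling its change was -0.13 (adjusted p = 0.089), so which of TB13 and TB14 had more Psph was not settled.

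Taking TB13 and TB14 together against Trib1, 26 of 32 response genes were called lower as deposited, where 55.9% of all genes were, and 4 higher, where 28.4% were. After quantile scaling 13 were lower, where 31.7% of all genes were, and 10 higher, where 38.6% were. Under all 4 scalings Psph, Phgdh and Atf3 were higher and Atf5, Asns, Slc7a5, Eif2ak3 and Eif2ak4 lower, where 19.1% and 12.8% of all genes were, and 11 genes were called both ways. For Atf3 this again rested on TB13. Phgdh, Eif2ak3 and Eif2ak4 were not called in TB14 as deposited (0.06, -0.03 and -0.10), so their calls came mainly from TB13. A further Phgdh probe set changed by -0.03 over both lines as deposited and did not pass (adjusted p = 0.18). Median scaling gave 28 lower and 3 higher, where 62.3% and 19.4% of all genes were, and the hybridization controls 5 and 15, where 13.1% and 70.0% were. Psph changed by 1.02 ± 0.053 as deposited and 1.19 ± 0.060 after quantile scaling (adjusted p = 1.9e-12 and 3.4e-11). Atf5 changed by -1.05 ± 0.045 and -0.62 ± 0.041, Asns by -0.35 ± 0.018 and -0.29 ± 0.020, and Slc7a5 by -0.47 ± 0.023 and -0.32 ± 0.018. After quantile scaling Atf5 and Slc7a5 did not pass in TB13 (-0.0046 and 0.034), so there these falls came from TB14. On the hybridization controls Atf5 and Slc7a5 were called higher in TB13 (0.22 and 0.16). Asns changed by -0.065 in TB13 after quantile scaling, so its fall too came mostly from TB14. For Ddit3 the mean over both lines joined a rise and a fall, and its values of -0.33 and, quantile-scaled, 0.01 described neither line. With the mean of each line taken as 1 sample, 0 response genes were called in either direction (limma), and over all genes 1 was called higher and 10 lower.

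Genes next to the list in the same pathways were taken from 6 further lists. Of 16 other ATF4 targets tested in TB14, 11 were called lower and 1 higher, where 21.5% and 27.0% of all genes were. Their median change was -0.21. Aldh1l2, a mitochondrial folate enzyme, went from 180.0 ± 12.5 to 66.3 ± 4.14 units (SD, n = 4), a change of -1.29 ± 0.075 (adjusted p = 2.2e-11). Nfil3, a basic leucine zipper factor, went from 164 ± 4.2 to 68.0 ± 2.83 in TB14 and 36.4 ± 3.32 in TB13, with changes of -1.13 and -1.85, the latter -1.71 after quantile scaling. Jdp2, another leucine zipper repressor, changed by -0.66 in TB14 and by -1.17 in TB13 (-0.42 after quantile scaling). Stc2, a secreted glycoprotein, was the gene called higher, by 0.14 in TB14 (adjusted p = 0.017), and after quantile scaling it did not pass (adjusted p = 0.058).

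Of 11 genes of eIF2 and its regulators 3 were called higher and 3 lower in TB14, where 27.0% and 21.5% of all genes were. Impact, an inhibitor of GCN2, changed by -0.46 ± 0.066 in TB14 and by -1.37 in TB13 (-0.64 after quantile scaling). Eif2ak2, the kinase PKR, changed by -0.23 in TB14 and -1.09 in TB13 (-0.95), and Ppp1r15b, the constitutive eIF2alpha phosphatase subunit, by -0.19 and -0.85 (-0.25). Eif2b1, a subunit of the exchange factor eIF2B, rose by 0.25 in TB14. Like Eif2ak3 and Eif2ak4, Eif2ak2 was thus called lower in TB13 before and after quantile scaling. So was the remaining eIF2alpha kinase, the heme-regulated Eif2ak1, named after its values were seen, by -0.86 and -0.65. As deposited 63.6% of all genes were called lower in TB13, and after quantile scaling 38.3% were. In TB14 Eif2ak1 was called higher by 0.19 (adjusted p = 0.0035), and after quantile scaling it did not pass (adjusted p = 0.085).

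The cytoplasmic synthetases and cofactors outside the list moved in both directions. Of 10 tested in TB14, 5 were called higher and 3 lower, where 27.0% and 21.5% of all genes were. Their median change was 0.10 against -0.17 in the list, a difference that was not tested. Farsa, a subunit of the phenylalanyl enzyme, rose by 0.39 ± 0.033, and Aimp1, a scaffold of the multisynthetase complex, and Qars changed by -0.29 ± 0.030 and -0.25 ± 0.026. Hars changed by 0.08 without passing (adjusted p = 0.16). Of 14 mitochondrial synthetases 1 was called higher, Hars2 by 0.28, and 1 lower, Fars2 by -0.16, where 27.0% and 21.5% of all genes were. After quantile scaling Hars2 did not pass (adjusted p = 0.094). Cars2 and Iars2 changed by -1.21 and -1.10 in TB13 (-0.82 and -0.42 after quantile scaling) and did not pass in TB14.

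Of 10 other amino acid transporters 3 were called higher and 4 lower in TB14, where 27.0% and 21.5% of all genes were. Slc6a9, the glycine transporter GLYT1, and Slc43a2, a carrier of neutral amino acids, changed by -0.69 ± 0.051 and -0.49 ± 0.058, and Slc7a6, a light chain that pairs with Slc3a2, rose by 0.54 ± 0.046. Slc43a1 rose in both lines, by 0.53 in TB14 and 0.66 in TB13 (0.75 after quantile scaling). Of 6 other genes of serine, one-carbon and proline metabolism 4 were called higher in TB14 and 0 lower, with a median of 0.27. The shares of all genes were again 27.0% and 21.5%. Pycrl, a pyrroline-5-carboxylate reductase, and Mthfd1, the cytoplasmic folate enzyme, changed by 0.37 ± 0.059 and 0.26 ± 0.038. Prodh and Mthfd2l changed by -0.04 and -0.10 without passing (adjusted p = 0.64 and 0.19).

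**Figure D4:**
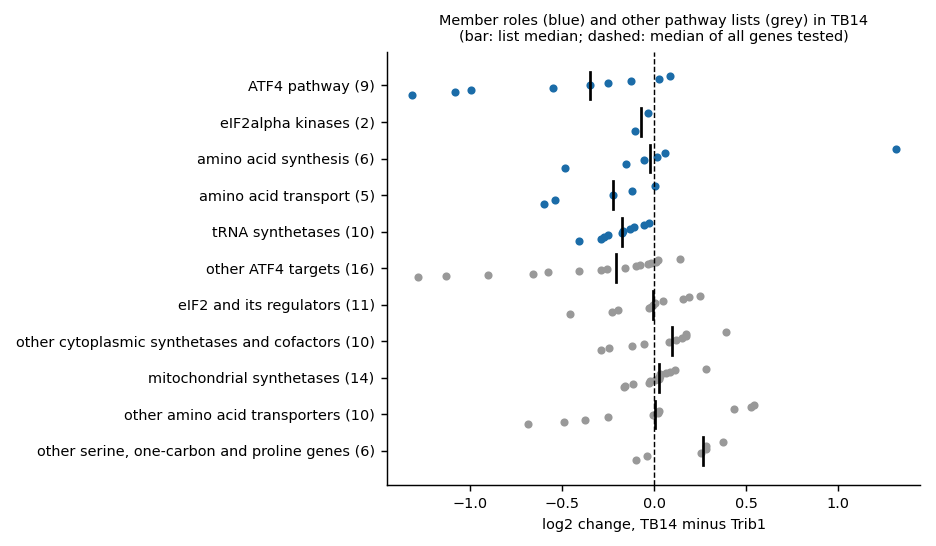
Log2 change in TB14 against Trib1 of every tested gene, one point per gene, for the 5 roles of the response list (blue) and 6 other pathway lists (grey), with bars at the list medians and the dashed line at the median of all genes. Points of the ATF4 pathway and of other ATF4 targets reach below -1, and the median of the serine, one-carbon and proline list lies at 0.27.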

How the data were processed

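Total RNA of 3 mouse leukaemia lines was labelled with biotin and hybridized to 12 arrays, 4 per line. The authors deposited linear intensities computed with MAS5 (version not named), per the submitters' processing notes. The sources used here name no scaling, background correction, filter or genome build.

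Of 45141 probe sets, 104 controls were left out. In the platform annotation 28898 of the others had 1 gene, 551 several and 15588 none, and probe sets with 1 gene were used. Kept were 17480 that exceeded the median of the array on 4 or more of the 12, and the one with the highest mean stood for its gene (11223 genes). The scale was log2(value + 12.7), the pseudocount being the 25th percentile of the deposited values. All 12 arrays entered 1 limma model (limma 3.58.1, R 4.3.3) with 3 groups and a variance trend, and p-values were Benjamini-Hochberg adjusted over all genes. Calibration on hybridization controls fitted a quadratic curve per array, held constant outside its range. Alternatives were 3 other scalings, other pseudocounts, filters, variance models and probe set rules, a replicate block, fits of the compared groups, a 2-fold threshold, line means and leaving out each array.

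The genes named were all members of the response list, and of each further list up to 3 called genes with the largest change over both lines and the highest and lowest called in TB14. Members and lists were chosen with earlier results of these data known. The count of calls kept under 4 scalings was added after seeing the data. Promoter windows are from RefSeq. Tested on simulated data for TB14 against Trib1 over 11223 genes, the fit recovered 76% of 1.2-fold changes and 100% of 1.5-fold, 2-fold and 4-fold changes (50 genes each) and called 9 unchanged genes. No 2 arrays held identical values, and the median within-line SD was 0.071 log2 units. Figures were drawn with matplotlib 3.10.9.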

Additional observations from a re-analysis of the deposited data

Results flagged for a closer look

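In 4 of 99 groups of 4 arrays a reading lay far from the other 3, by the gap to the nearest divided by the range, where chance gives about 1 in 20 groups. Atf5 on 1 Trib1 array read 259 units against 290.3 to 296 on the others (gap over range 0.857). Eprs on 1 Trib1 array read 828 against 786 to 791 (0.876), and Sesn2 on 1 Trib1 array 206 against 200.7 to 201 (0.854). Gars on 1 TB13 array read 1486 against 1541 to 1544 (0.946).

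TB13 and TB14 moved in opposite directions from the Trib1 line for 3 genes, and the difference between the lines passed limma with Benjamini-Hochberg adjustment. The log2 change of TB14 against TB13 was -1.51 for Ddit3, -1.26 for Trib3 and -0.58 for Nupr1 as deposited, with all 4 TB14 arrays below all 4 TB13 arrays. The TB13 arrays had lower hybridization controls, by a median of -0.93, and the part of that in the difference was not tested. In a fit of the Trib1 and TB14 arrays alone all 3 genes were called lower in TB14 as well. That fit leaves their log2 changes as they were, because the TB13 arrays do not enter them. It says nothing on the difference between TB13 and TB14. The controls of TB14 and Trib1 differed by a median of 0.0010.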

How the results depend on the processing

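The scaling decided most directions that involve TB13. Quantile scaling gave 22 response genes higher and 4 lower in TB13 and calibration on the hybridization controls 28 and 2, against 7 and 23 as deposited, while 73.3% of all genes were higher on the controls. For both lines the counts were 10 and 13, and 15 and 5, against 4 and 26. For TB14 against TB13 they were 3 and 25 (quantile), 19 and 8 (median) and 1 and 30 (hybridization controls), against 11 and 16. In TB14 against Trib1 the count of falls stayed between 19 and 22 under the 4 scalings, and the count of rises was 1 or 2, with 2 under median scaling and under hybridization controls. It was 3 with the mean of a gene's probe sets, 3 in a fit of the 2 groups compared (with 23 falls), and 2 or 1 with single arrays left out (2 without TB13 array 1, 2 or 4). At 2-fold or more the counts were 0 higher and 2 lower in TB13, 1 and 2 in TB14, 1 and 1 for both lines and 2 and 2 for TB14 against TB13. Over all 11223 genes they were 113 and 1660, 115 and 201, 46 and 343, and 1713 and 135, in the same order. With line means the counts of response genes were 0 and 0 for both lines.

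The values that follow are log2 changes of genes called before or after the change of setting whose sign turned. Under quantile scaling in TB13 they were Atf4 0.094, Chac1 0.34, Sesn2 0.12, Ppp1r15a 0.19, Shmt2 0.15, Slc7a5 0.034, Slc3a2 0.14, Slc7a1 0.29, Aars 0.42, Gars 0.16, Iars 0.20, Lars 0.026, Mars 0.15, Nars 0.080, Sars 0.32, Wars 0.65, Yars 0.48 and Eprs 0.21, and for TB14 against TB13 Chac1 -0.63, Sesn2 -0.054, Psat1 -0.16, Psph -0.13, Shmt2 -0.32, Aldh18a1 -0.0023, Slc7a1 -0.43, Aars -0.49, Lars -0.33, Mars -0.19, Yars -0.62 and Eprs -0.53. On hybridization controls in TB13 they were Atf4 0.094, Atf5 0.22, Chac1 0.48, Sesn2 0.43, Ppp1r15a 0.61, Shmt2 0.28, Aldh18a1 0.11, Slc7a11 0.40, Slc7a5 0.16, Slc3a2 0.22, Slc7a1 0.43, Aars 0.55, Gars 0.28, Iars 0.33, Lars 0.16, Mars 0.28, Nars 0.12, Sars 0.44, Wars 0.89, Yars 0.61 and Eprs 0.33, and for TB14 against TB13 Chac1 -0.72, Sesn2 -0.34, Psat1 -0.19, Psph -0.48, Shmt2 -0.42, Aldh18a1 -0.15, Slc7a11 -0.999, Slc7a1 -0.53, Aars -0.58, Lars -0.43, Mars -0.28, Yars -0.71 and Eprs -0.62. For both lines against Trib1 they were, under quantile scaling, Ddit3 0.0058, Chac1 0.028, Sesn2 0.089, Nupr1 0.31, Slc7a1 0.076, Aars 0.18, Iars 0.0046, Mars 0.059, Wars 0.20 and Yars 0.17, and on hybridization controls Ddit3 0.043, Chac1 0.12, Sesn2 0.26, Nupr1 0.39, Ppp1r15a 0.012, Shmt2 0.074, Aldh18a1 0.032, Slc3a2 0.0029, Slc7a1 0.17, Aars 0.26, Gars 0.083, Iars 0.087, Mars 0.14, Sars 0.012, Wars 0.31, Yars 0.26 and Eprs 0.022. Under median scaling they were Psat1 -0.17 in TB13, Psat1 -0.067 for both lines and, for TB14 against TB13, Atf4 0.064, Slc3a2 0.020, Gars 0.13, Iars 0.13, Nars 0.070 and Wars 0.035. With the mean of probe sets they were Sesn2 -0.13, Slc7a1 0.0076 and Aars 0.066 in TB14 and Phgdh 0.018, Iars 0.22 and Wars 0.34 for TB14 against TB13. Under the scalings 4 changes not called before or after also turned, Atf3 to -0.037, Slc7a3 to -0.059 and Mars to 0.0041 in TB14 on hybridization controls and Ppp1r15a to 0.11 for TB14 against TB13 after median scaling. The pseudocount, the filter, the variance model, the groups in the fit and leaving out single arrays turned no sign of a called gene. Calls of small changes were ended or gained by other fits. Without the variance trend Slc3a2, Nars and Sars lost their calls in TB13 (adjusted p = 0.085, 0.059 and 0.078; 20 falls in place of 23), as did Chac1 and Iars for TB14 against TB13 (0.053 and 0.068). In fits of the 2 groups compared Sars and Wars lost theirs in TB13 (0.056 and 0.066) and Chac1 its for TB14 against TB13 (0.096), while in TB14 Sesn2, Phgdh, Eif2ak4, Aars and Yars gained one (0.0091, 0.0021, 0.024, 0.024 and 5.9e-05). For both lines Slc7a3 lost its call without Trib1 array 4 or TB14 array 4 (0.18 and 0.050). Leaving out an array ended calls in TB13 as well. Adjusted p rose to 0.084 for Sars and 0.081 for Wars without TB13 array 3, to 0.088 for Wars without Trib1 array 4 and to 0.059 for Slc3a2 without Trib1 array 3, and Sars was at 0.050 to 0.056 without any single Trib1 array but the third. For TB14 against TB13, Chac1 lost its call without 10 of the 12 arrays in turn (0.054 to 0.16), Iars without TB13 array 3 or TB14 array 2 (0.075 and 0.056), and Slc7a1 gained one without TB13 array 2 (0.0485).

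Replicate numbers showed no clear pairing of the arrays, as deviations of same-numbered arrays correlated at -0.11 to 0.12. Of 12 arrays 6 were closest to their own number, a count that was not set against chance. With the replicate block the counts were 7 higher and 23 lower in TB13, 1 higher and 20 lower in TB14, 4 higher and 26 lower for both lines, 10 higher and 16 lower for TB14 against TB13. Dim genes (Atf3, Slc7a3, Vldlr) lay near the array median, where signal over background limits what can be measured.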
